A study of Homo sapiens with 9 samples.

Results

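The 10 genes described here, which set epithelial or mesenchymal identity, were followed through 9 human oesophageal adenocarcinoma cell lines, out of 52158 named genes in the deposited table. They were taken by name. The 5 repressors of epithelial genes were ZEB1, ZEB2, SNAI1, SNAI2 and TWIST1, and the 5 epithelial regulators were ESRP1, ESRP2, GRHL2, OVOL1 and OVOL2. All 10 were in the table. A gene was compared between libraries where it reached 1 CPM (counts scaled to a common library size) in at least 2 of them, which 17129 genes did. Of the 10 genes 9 passed, and TWIST1 did not, because it reached 1 CPM in 1 library. The repressors lie on chromosomes 10 (ZEB1), 2 (ZEB2), 20 (SNAI1), 8 (SNAI2) and 7 (TWIST1), and the epithelial regulators on chromosomes 8 (ESRP1 and GRHL2), 16 (ESRP2), 11 (OVOL1) and 20 (OVOL2).

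In an epithelial cell, ZEB1 and ZEB2 (zinc finger and homeobox proteins), SNAI1 and SNAI2 (Snail and Slug) and TWIST1 (a basic helix-loop-helix factor) are low, and when they are made they shut down junction genes such as E-cadherin during epithelial-mesenchymal transition. ESRP1 and ESRP2 are RNA-binding proteins that keep the splicing of many transcripts in its epithelial form, GRHL2 is a transcription factor that holds junction and polarity genes active, and OVOL1 and OVOL2 are zinc finger factors that repress mesenchymal regulators, ZEB1 among them. ZEB1 and the miR-200 microRNAs repress each other, and GRHL2 and OVOL2 are also described as opponents of ZEB1.

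The lines were OE33, ESO-26, OE19, JH_EsoAd1, OACP4_C, FLO-1, OAC_5.1_C, SK-GT-4 and ESO-51. The labels give oesophageal adenocarcinoma as the cell type of each and place its source in the gastric cardia. Each was an untreated culture taken near confluence and is represented by 1 library. The design text speaks of 3 technical replicates of each line, and the sources used here do not say how they enter the single column, so no difference has a replicate check and no test between lines is possible. Each library was therefore set against the median of the other 8 on the log2(CPM + 1) scale, and a gene was called higher or lower where it lay at least 4-fold (2 on that scale) away. This scale understates the change of low genes, and a gene whose median elsewhere is under 3 CPM cannot be called lower. Where a median of the other libraries is printed in CPM, it was taken from the CPM values. With 8 libraries a median averages the middle values. The printed CPM median therefore need not match the median on the log2 scale from which the difference was read.

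The libraries held 16801179 (ESO-26) to 69881539 (FLO-1) counts, so that 3 counts, the floor used for a gene without reads, were worth 0.0400 to 0.173 CPM. Mitochondrial ribosomal RNA took 24.7% of the counts in JH_EsoAd1 and at most 7.04% elsewhere. Exact Poisson intervals of a level cover counting error only. Some libraries stood apart from what their label leads one to look for, and each name is the label a library carries. Of 5 markers of columnar epithelium (KRT8, KRT18, KRT19, EPCAM and CDH1), 5 were lower in the library labelled ESO-26 and 3 in the library labelled OE33. Their summed level was 161 CPM in the library labelled ESO-26 and 1188 CPM in that labelled OE33, and it lay between 3592 and 13962 CPM in the other libraries. OE19 is known as a line with amplified ERBB2, and the library labelled OE19 had 185 CPM of ERBB2, rank 6 of 9, with the highest level, 18325 CPM, in SK-GT-4. The libraries labelled OE33 and ESO-26 had 149 and 10.4 CPM of ERBB2, ranks 8 and 9.

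The miR-200 family is shown first because its members carry the seeds by which ZEB1 and ZEB2 transcripts are recognised. Of the 5 mature sequences from RefSeq (GRCh38.p14), 3 share the seed AAUACUG and 2 share the seed AACACUG, with the seed (bases 2 to 8) in capitals.
hsa-miR-200b-3p: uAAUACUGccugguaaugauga
hsa-miR-429: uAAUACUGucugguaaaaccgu
hsa-miR-200c-3p: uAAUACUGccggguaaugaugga
hsa-miR-200a-3p: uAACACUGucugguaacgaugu
hsa-miR-141-3p: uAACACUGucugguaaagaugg
Genes for both seeds lie at each of 2 loci, with miR-200b, miR-200a and miR-429 on chromosome 1 and miR-200c and miR-141 on chromosome 12, where MIR200CHG is the host transcript.

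The table counts reads of total RNA over these loci and says nothing of the mature microRNAs, and its counts there were small. The summed counts of the chromosome 1 loci were 138 in ESO-51, 124 in FLO-1, 32 in SK-GT-4, 25 in OACP4_C, 16 in OAC_5.1_C, 10 in OE19 and 0 in ESO-26, OE33 and JH_EsoAd1. These counts are not scaled to library size, so their order is not one of level. MIR200A had 0.178 CPM in OE19, 0.0863 CPM in OACP4_C and 0.0617 CPM in OAC_5.1_C. In the same order MIR200B had 0.178, 0.224 and 0.0617 CPM, and MIR429 had 0, 0.121 and 0.206 CPM. MIR200CHG had 267 counts in ESO-51, 52 in OACP4_C, 48 in FLO-1, 20 in OAC_5.1_C, 19 in SK-GT-4, 4 in JH_EsoAd1, 1 in OE33 and 0 in OE19 and ESO-26. The 4 libraries with the fewest MIR200CHG counts, at 0 to 4, were the 4 with the highest ZEB1 levels, which ran from 9.86 to 85.7 CPM. MIR205HG, the host transcript of miR-205, which also targets ZEB1 and ZEB2, followed another order, with 145 CPM in OAC_5.1_C, 33.5 CPM in OACP4_C, 23.8 CPM in FLO-1, 4.86 CPM in JH_EsoAd1 and at most 0.0754 CPM in the rest.

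ZEB and Snail proteins bind E-box sequences of the form CAGGTG or CAGGTA. The windows from 250 bases before to 50 bases after annotated starts were searched for both, on either strand. The MIR200CHG start and 1 of the ZEB1 starts are printed because the libraries with the fewest MIR200CHG counts had the highest ZEB1 levels. The remaining libraries did not keep an opposite order. MIR200CHG reached 1 CPM only in ESO-51 (5.94 CPM, with ZEB1 at 1.33 CPM). It was 0.611 CPM in SK-GT-4, which had the least ZEB1 (0.0965 CPM). Matches are in capitals (CACCTG is the reverse complement of CAGGTG).
MIR200CHG, chr12:6962995-6963294, plus strand, GRCh38.p14: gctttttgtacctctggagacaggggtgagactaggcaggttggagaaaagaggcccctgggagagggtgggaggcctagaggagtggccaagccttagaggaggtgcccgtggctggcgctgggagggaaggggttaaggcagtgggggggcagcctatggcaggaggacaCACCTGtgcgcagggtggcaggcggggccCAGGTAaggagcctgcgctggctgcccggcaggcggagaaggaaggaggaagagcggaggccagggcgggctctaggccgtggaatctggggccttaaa
ZEB1, chr10:31318966-31319265, plus strand, GRCh38.p14: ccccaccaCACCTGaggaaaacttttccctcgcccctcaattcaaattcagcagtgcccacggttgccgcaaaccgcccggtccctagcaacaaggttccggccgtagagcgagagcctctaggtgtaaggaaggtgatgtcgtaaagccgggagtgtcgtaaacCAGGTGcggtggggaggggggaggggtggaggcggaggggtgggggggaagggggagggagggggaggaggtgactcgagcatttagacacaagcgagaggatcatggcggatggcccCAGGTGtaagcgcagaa
The MIR200CHG window held 1 CAGGTG and 1 CAGGTA match. The ZEB1 window, the one with the most matches of the 7 ZEB1 windows, held 3 CAGGTG matches, 5 of the 7 held at least 1 match, and the ZEB2 window held none. Among 35116 windows of the same length, 20.6% held CAGGTG, 9.83% CAGGTA and 28.1% either, and 5.9% held at least 2 matches. A match describes the letters only and is no evidence of binding. Promoter windows were at hand for 2 of the 10 genes, ZEB1 and ZEB2.

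ZEB1 varied widely and was highest in OE33, ESO-26 and OE19. Its level was 85.7 CPM in OE33, 61.2 CPM in ESO-26, 54.99 CPM in OE19, 9.86 CPM in JH_EsoAd1, 5.68 CPM in OACP4_C, 1.33 CPM in ESO-51, 0.494 CPM in OAC_5.1_C, 0.107 CPM in FLO-1 and 0.0965 CPM in SK-GT-4. The top 3 libraries formed a group above the rest, and the step down to JH_EsoAd1 was 2.37 on the log2 scale. Against a median of 3.50 CPM over the other 8 libraries the difference was 4.46 in OE33, 3.98 in ESO-26 and 3.83 in OE19. It was -2.96 in SK-GT-4 (3 counts), -2.94 in FLO-1 (8 counts) and -2.51 in OAC_5.1_C (24 counts), each against 7.77 CPM in the other libraries. Of the 8 neighbouring places in this order, 2 had overlapping Poisson intervals, ESO-26 beside OE19 and FLO-1 beside SK-GT-4. The range from lowest to highest was 6.30 on the log2 scale, and 4.76% of tested genes had one as large.

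ZEB2, the second member of the family, was high in 2 libraries. It had 17.5 CPM in OE33 and in ESO-26 8.25 CPM, and then 1.39 CPM in JH_EsoAd1, 1.28 CPM in FLO-1, 0.412 CPM in OAC_5.1_C, 0.224 CPM in OACP4_C, 2 counts in OE19, 1 count in SK-GT-4 and 0 counts in ESO-51. OE33 and ESO-26 stood 3.82 and 2.81 above a median of 0.318 CPM on the log2 scale. In OE19, by contrast with its ZEB1 level, ZEB2 was at the floor. ZEB1-AS1, the antisense transcript at the ZEB1 start, had 1.37 CPM (FLO-1) to 7.44 CPM (ESO-26), and because the strand setting of the counting is not given, its reads and those of ZEB1 cannot be told apart where they overlap.

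**Figure D1:**
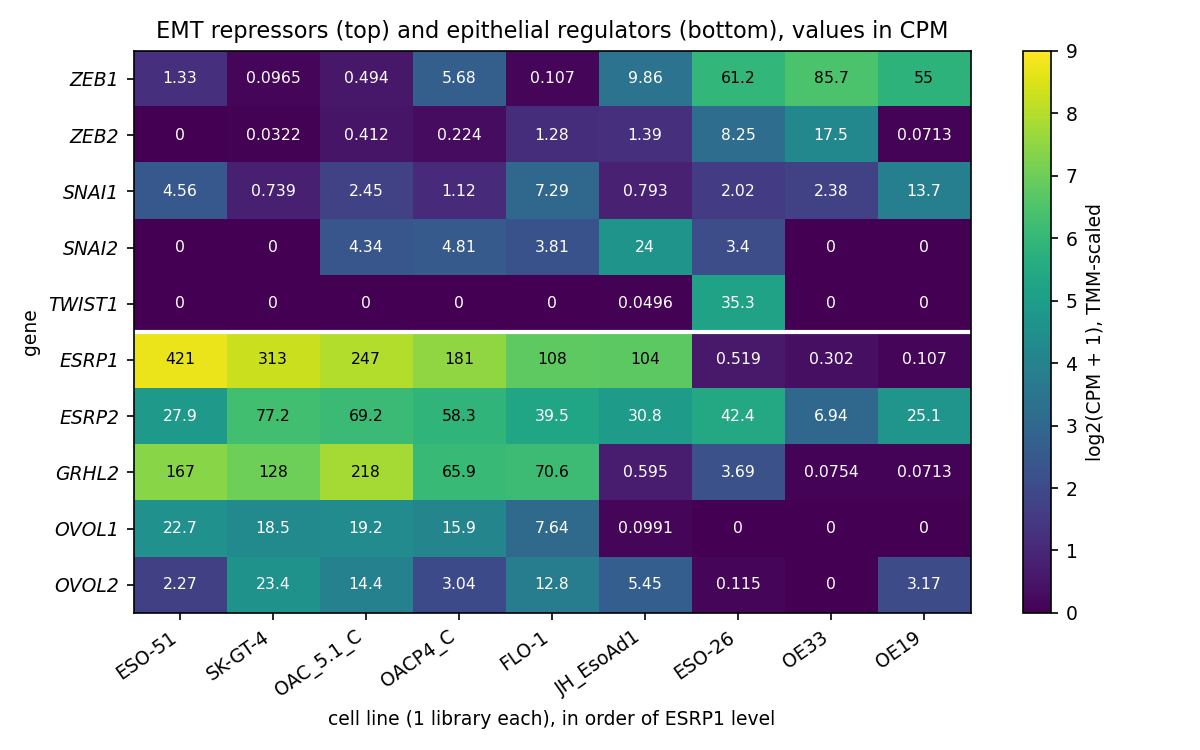
Each square gives the CPM of 1 gene (rows, repressors above and epithelial regulators below the white line) in 1 library (columns, in order of ESRP1 level), coloured by log2(CPM + 1). ZEB1 is high in ESO-26, OE33 and OE19 (54.99 to 85.7 CPM), where ESRP1 lies at 0.107 to 0.519 CPM.

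SNAI1, which encodes Snail, was the most even of the repressors. It had 13.7 CPM in OE19, 7.29 CPM in FLO-1, 4.56 CPM in ESO-51, 2.45 CPM in OAC_5.1_C, 2.38 CPM in OE33, 2.02 CPM in ESO-26, 1.12 CPM in OACP4_C, 0.793 CPM in JH_EsoAd1 and 0.739 CPM in SK-GT-4. OE19 alone was called higher, at 2.20 above a median of 2.20 CPM in the other libraries on the log2 scale. The range of 3.08 was not unusual, since 26.7% of tested genes had one as large.

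SNAI2, which encodes Slug, was either detected or without a read. It had 23.99 CPM in JH_EsoAd1, 4.81 CPM in OACP4_C, 4.34 CPM in OAC_5.1_C, 3.81 CPM in FLO-1 and 3.40 CPM in ESO-26. It had 0 counts in OE19, SK-GT-4, OE33 and ESO-51, where 3 counts would be 0.107, 0.0965, 0.113 and 0.0667 CPM. JH_EsoAd1 stood 3.57 above the median of 1.70 CPM in the other libraries, and the 4 libraries without a read stood 2.20 below a median of 3.61 CPM. SNAI2 was thus without a read in 2 of the 3 libraries that had the most ZEB1, and highest in the library next in the ZEB1 order.

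TWIST1 was found in 1 library. It had 612 counts in ESO-26, or 35.3 CPM (95% interval 32.6 to 38.2), 1 count in JH_EsoAd1, and 0 counts in the other 7 libraries. The level in ESO-26 was at least 312-fold higher than 0.113 CPM, the highest level that 3 counts would give in a library without a read. TWIST2, its closest relative, was instead found in FLO-1 at 7.99 CPM and had at most 1 count in each of the other libraries.

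ESRP1 split the libraries most widely of the 10 genes. It had 421 CPM in ESO-51, 313 CPM in SK-GT-4, 247 CPM in OAC_5.1_C, 181 CPM in OACP4_C, 108 CPM in FLO-1 and 104 CPM in JH_EsoAd1, and then 0.519 CPM in ESO-26 (9 counts), 0.302 CPM in OE33 (8 counts) and 0.107 CPM in OE19 (3 counts). No level lay between 0.519 and 104 CPM, a step of 6.12 on the log2 scale, and 0.169% of tested genes had a step as large between neighbouring libraries. Against a median of 145 CPM in the other 8 libraries the difference was -6.99 in OE19, -6.76 in OE33 and -6.54 in ESO-26. The whole range of 8.57 was matched by 0.642% of tested genes. In a bulk library, fewer cells with a transcript and less transcript per cell cannot be told apart.

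ESRP2, the paralogue of ESRP1, was present in every library. It had 77.2 CPM in SK-GT-4, 69.2 CPM in OAC_5.1_C, 58.3 CPM in OACP4_C, 42.4 CPM in ESO-26, 39.5 CPM in FLO-1, 30.8 CPM in JH_EsoAd1, 27.9 CPM in ESO-51, then 25.1 CPM in OE19 and 6.94 CPM in OE33. Its level in ESO-26 lay in the middle of the order, and OE33 alone was called lower, at -2.40 against a median of 41.0 CPM. The range of 3.30 was matched by 23.7% of tested genes.

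GRHL2 was low in the same 3 libraries as ESRP1 and in JH_EsoAd1. It had 218 CPM in OAC_5.1_C, 167 CPM in ESO-51, 128 CPM in SK-GT-4, 70.6 CPM in FLO-1 and 65.9 CPM in OACP4_C, and then 3.69 CPM in ESO-26 (64 counts), 0.595 CPM in JH_EsoAd1 (12 counts), 0.0754 CPM in OE33 (2 counts) and 0.0713 CPM in OE19 (2 counts). Against 68.3 CPM in the other libraries the difference was -6.01 in both OE19 and OE33, -5.44 in JH_EsoAd1 and -3.88 in ESO-26. JH_EsoAd1 therefore combined ESRP1 at 104 CPM with GRHL2 near the floor. OAC_5.1_C, ESO-51, SK-GT-4 and FLO-1 were called higher by 2.02 to 3.63 against a log2 median that lies between the high and the low levels. The median of the CPM values was 34.8 CPM, and FLO-1 at 70.6 CPM was less than 4-fold above that. These 4 calls ended when any one of OE19, ESO-26, OE33 or JH_EsoAd1 was left out.

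**Figure D2:**
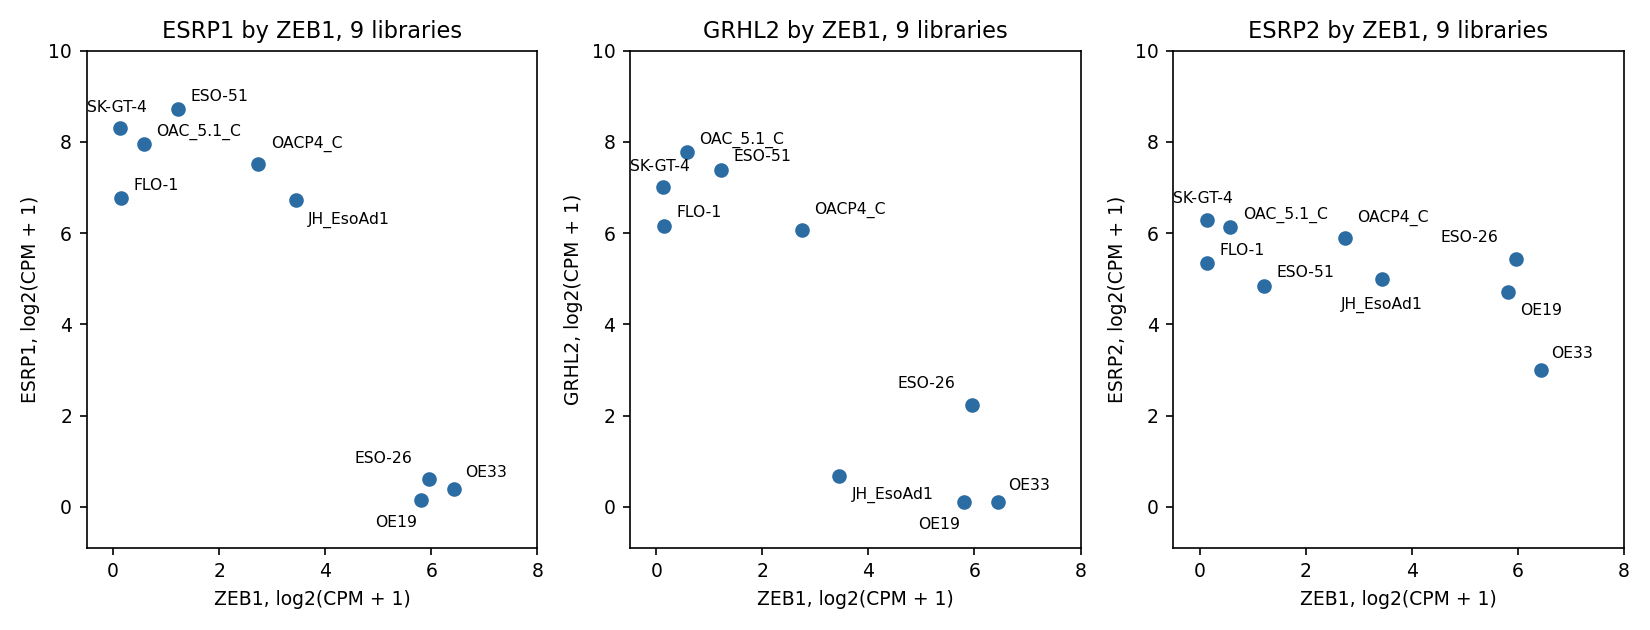
Each panel sets ESRP1, GRHL2 or ESRP2 (vertical axis) against ZEB1 (horizontal axis), both as log2(CPM + 1), with 1 point per library. OE19, ESO-26 and OE33 lie at the right with ESRP1 at 0.107 to 0.519 CPM, JH_EsoAd1 lies low for GRHL2 (0.595 CPM) but not for ESRP1 (104 CPM), and ESRP2 stays at 6.94 CPM or above throughout.

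OVOL1 followed GRHL2. It had 22.7 CPM in ESO-51, 19.2 CPM in OAC_5.1_C, 18.5 CPM in SK-GT-4, 15.9 CPM in OACP4_C and 7.64 CPM in FLO-1, with 2 counts in JH_EsoAd1 and 0 counts in OE19, ESO-26 and OE33. The difference was -3.60 in OE19, ESO-26 and OE33 and -3.46 in JH_EsoAd1, against 11.8 CPM in the other libraries. ESO-51, OAC_5.1_C, SK-GT-4 and OACP4_C were called higher by 2.46 to 2.94, and these calls too ended without any one of the 4 libraries with at most 2 counts.

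OVOL2, its paralogue, kept a different order. It had 23.4 CPM in SK-GT-4, 14.4 CPM in OAC_5.1_C, 12.8 CPM in FLO-1, 5.45 CPM in JH_EsoAd1, 3.17 CPM in OE19, 3.04 CPM in OACP4_C, 2.27 CPM in ESO-51, 2 counts in ESO-26 and 0 counts in OE33. SK-GT-4 was called higher at 2.57, and OE33 and ESO-26 lower at -2.38 and -2.22 against 4.31 CPM. The call in ESO-26 ended without FLO-1, SK-GT-4, OAC_5.1_C or JH_EsoAd1. OE19 and JH_EsoAd1, which had next to no OVOL1 and GRHL2, thus had OVOL2 at 89 and 110 counts.

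Over the 9 tested genes and 9 libraries there were 81 pairs of gene and library. Of these, 16 (19.8%) were at least 4-fold higher and 21 (25.9%) at least 4-fold lower, where over all tested genes and libraries the shares were 4.3% and 3.22%. The repressors had 7 higher and 7 lower pairs, and the epithelial regulators 9 higher and 14 lower. Of the 9 tested genes, 7 had a range of at least 4 on the log2 scale, against 17% of all tested genes, 3 had a range of at least 6 (5.75% of tested genes) and 1 a range of at least 8 (1.17%). The higher pairs numbered 7 without OE19 or without OE33 and 10 without ESO-26, and a larger pseudocount or the deposited FPKM left fewer of either kind. Of the 37 calls, 7 held under each other setting and without each other library. They were the low ESRP1 in OE19, ESO-26 and OE33 and the low GRHL2 in OE19, ESO-26, OE33 and JH_EsoAd1.

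In OE33, 2 of the 9 genes were higher (4.4% of all tested genes) and 6 lower (4.8%), among them each of the 5 epithelial regulators and SNAI2. In ESO-26, 2 were higher (3.81%) and 4 lower (7.25%), ESRP2 being the epithelial regulator within 4-fold of the other libraries. In OE19, 2 were higher (3.95%), ZEB1 and SNAI1, and 4 lower (4.22%), SNAI2, ESRP1, GRHL2 and OVOL1. In these 3 libraries the median difference of the tested repressors was 1.94, 1.91 and 0.73, and that of the epithelial regulators was -3.60 each time, which is the OVOL1 value.

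JH_EsoAd1 had 1 higher gene (4.38%), SNAI2, and 2 lower ones (1.3%), GRHL2 and OVOL1, with medians of 1.16 for the repressors and -0.42 for the epithelial regulators. The other libraries leaned towards the epithelial regulators or showed no lean. SK-GT-4 had 3 higher genes (4.84%) and 2 lower (3.61%), with medians of -1.59 for the repressors and 2.57 for the epithelial regulators. ESO-51 had 2 higher (3.79%) and 1 lower (3.08%), with medians of -1.36 and 1.98 in the same order of classes. OAC_5.1_C had 2 higher (4.75%) and 1 lower (1.63%), with -0.07 and 1.91. OACP4_C had 1 higher (3.56%) and 0 lower (1.91%), with -0.07 and 0.77. FLO-1 had 1 higher (5.23%) and 1 lower (1.15%), with 0.996 and 1.002. The median over all tested genes lay between -0.04 and 0.02 in each library.

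**Figure D3:**
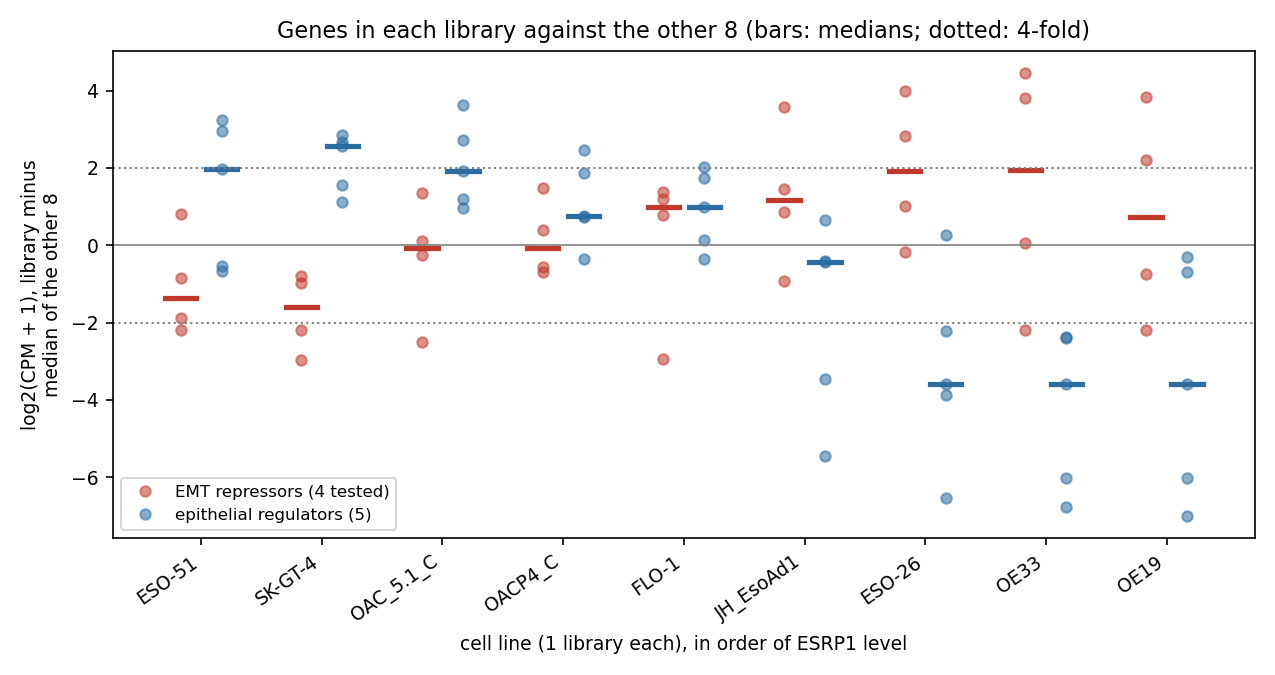
Points give log2(CPM + 1) minus the median of the other 8 libraries for each tested repressor (red, 4 genes) and epithelial regulator (blue, 5 genes) in each library, bars the median of each class, and dotted lines the 4-fold limits at 2 and -2. The epithelial median is -3.60 in ESO-26, OE33 and OE19, and the lowest points there, ESRP1, lie at -6.99 to -6.54.

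Across the 9 libraries, which share 1 table and its scaling, ZEB1 ran opposite to each of the 5 epithelial regulators, given here as a description, and the other repressors did so less evenly. Of the 25 pairs made of 1 gene from each class, 21 had a negative Pearson r, with a median of -0.40. Without the 2 libraries farthest from the median of the repressor, r could be had for 20 pairs and was negative in 11. These were 5 of 5 pairs for ZEB1, 3 of 5 for ZEB2, 3 of 5 for SNAI1 and 0 of 5 for SNAI2, which had 2 of 5 negative pairs over all libraries. TWIST1 rests on 1 library and gave no value there. The contrast between repressors depends in part on this rule. It took out OE33 and ESO-26 for ZEB1 and ZEB2 alike, which leaves no library high in ZEB2 but keeps OE19 with ZEB1 at 54.99 CPM. For SNAI2 it took out JH_EsoAd1 and ESO-51, and ESO-51 was tied with other libraries at 0 counts. Of the 10 pairs within the epithelial class 0 were negative, with a median of 0.69, and GRHL2 and OVOL1 were closest (r 0.97, Spearman rho 0.92). Within the repressors 4 of 10 pairs were negative and the median was 0.08. The repressors were thus not high in the same libraries, with OE33 leading for ZEB1 and ZEB2, OE19 for SNAI1, JH_EsoAd1 for SNAI2 and ESO-26 for TWIST1.

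Paralogues were compared per kilobase of the deposited gene length. ESRP1 was above ESRP2 in 6 libraries, with 29.5 against 2.07 CPM per kb in ESO-51 (14.2-fold) and between 2.58-fold (FLO-1) and 3.82-fold (SK-GT-4) in the other 5. The order was turned in the 3 libraries that had almost no ESRP1. ESRP2 exceeded ESRP1 there 86.7-fold in ESO-26 and 24.4-fold in OE33, while in OE19 ESRP1 rests on 3 counts (95% interval 0.0220 to 0.312 CPM). In those libraries nearly all ESRP message was ESRP2, at 3.16 CPM per kb in ESO-26, 1.87 CPM per kb in OE19 and 0.516 CPM per kb in OE33. Counts per gene do not show which splice forms either paralogue leaves behind.

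ZEB1 exceeded ZEB2 per kb in most libraries, by 6.28-fold in OE33, 9.54-fold in ESO-26 and 9.14-fold in JH_EsoAd1, whereas in FLO-1 ZEB2 was 9.33-fold above ZEB1, which had 8 counts. SNAI2 was 13.6-fold above SNAI1 in JH_EsoAd1 and 1.93-fold above it in OACP4_C. SNAI1 was above SNAI2 elsewhere, by at least 284-fold in OE19, 152-fold in ESO-51, 46.7-fold in OE33 and 17.03-fold in SK-GT-4, all against 3 counts where SNAI2 had none. In ESO-26 and OAC_5.1_C this order rests on the deposited lengths, because SNAI1 had fewer counts than SNAI2 (35 against 59 and 119 against 211). OVOL1 was 6.57-fold above OVOL2 in ESO-51 and 3.44-fold in OACP4_C, and OVOL2 was at least 45.2-fold above OVOL1 in OE19 and 2.55-fold in FLO-1.

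**Figure D4:**
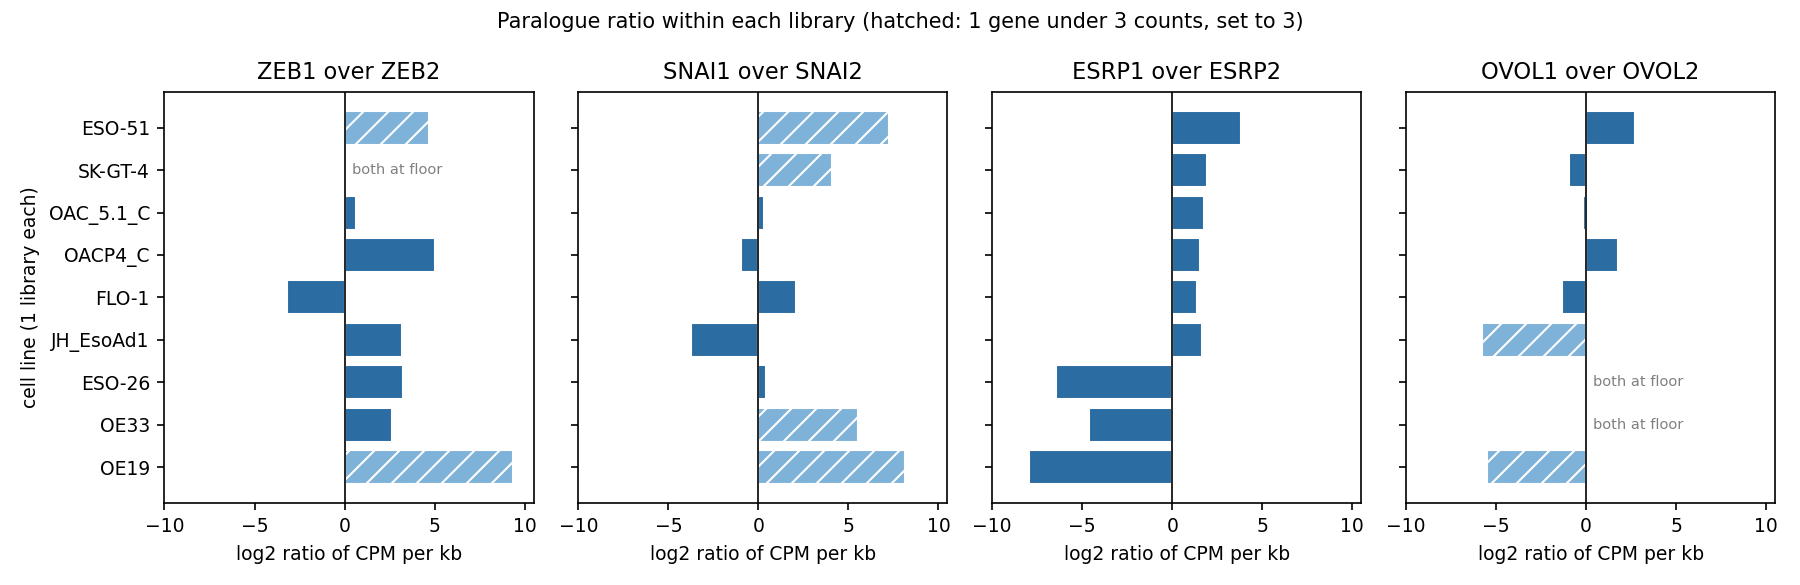
Bars give the log2 ratio of CPM per kb of the first over the second paralogue in each library, and hatched bars mark ratios in which a gene with fewer than 3 counts was set to 3. The ESRP bars point to ESRP1 in 6 libraries and to ESRP2 in ESO-26, OE33 and OE19.

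Genes known to be under the control of these regulators were read from lists of their own. Of 21 epithelial junction, polarity and trafficking genes, all tested, 18 were lower and 0 higher in ESO-26 (median difference -5.24), and 12 were lower and 0 higher in OE33 (-3.47). These 12 were all among the 18. In ESO-26 E-cadherin (CDH1) had 0.173 CPM against 302 CPM in the other libraries, the membrane protease ST14 0.173 against 225 CPM, and MAL2, which serves transport to the apical membrane, 0.404 against 260 CPM. In OE33 the adhesion gene EPCAM had 0.189 CPM against 402 CPM, and MAL2 had 0.377 against 260 CPM. The call rates over all tested genes given for each library above apply here too.

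OE19 differed from these in its junction genes. In that library 4 of 21 genes were lower and 0 higher, with a median difference of -0.50. RAB25, a small GTPase of apical recycling, had 0.0356 CPM (1 count) against 60.7 CPM in the other libraries, ST14 8.48 against 225 CPM, the tight junction gene MARVELD3 0.178 against 12.9 CPM and the cornified envelope gene PPL 11.4 against 124 CPM. CDH1 at 77.8 CPM, EPCAM at 355 CPM and the claudin gene CLDN4 at 399 CPM were not called. OE19 thus had ZEB1 at 54.99 CPM and ESRP1 at 3 counts together with most junction transcripts and KRT8 at 3342 CPM. In JH_EsoAd1 5 genes were lower and 0 higher (-1.36), led by RAB25 at 0.0991 CPM (2 counts) and CLDN4 at 24.5 CPM against 353 CPM. The 4 libraries with at most 2 RAB25 counts were also the 4 with the least GRHL2 and OVOL1. In the remaining libraries 1 gene (OACP4_C and FLO-1), 2 (SK-GT-4), 3 (ESO-51) and 4 (OAC_5.1_C) were higher and 0 lower.

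Other epithelial transcription factors were low in ESO-26 and OE33 as well, with 7 of 12 lower and 1 higher in each. Over all tested genes, 7.25% were called lower in ESO-26 and 4.8% in OE33, and 3.81% and 4.4% higher. In ESO-26 ELF3 had 0.346 CPM against 178 CPM and KLF5 2.25 against 188 CPM. In OE33 ELF3 had 0.792 CPM and KLF5 8.75 CPM against the same medians. EHF, an ETS factor of epithelia, set these libraries apart, at 4 counts in OE33 and 790 CPM in ESO-26, which was its highest level. ELF5, known from mammary and placental epithelium, was also highest in ESO-26 (171 CPM against 0.258 CPM). In OE19 2 of 12 were lower, among them TFAP2C at 1 count, and GRHL3, a relative of GRHL2, was higher at 27.5 CPM against 4.44 CPM. JH_EsoAd1 had 2 lower (EHF at 23.99 CPM and TFAP2C at 1 count) and 1 higher (FOXA1 at 149 CPM). The shares over all tested genes were 4.22% lower and 3.95% higher in OE19, and 1.3% and 4.38% in JH_EsoAd1.

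Mesenchymal genes, of which 17 of 21 were tested, moved in several patterns. CDH2, MMP2, POSTN and THY1 were not tested, because none reached 1 CPM in at least 2 libraries. CDH2 had 101 CPM in JH_EsoAd1, POSTN 108 CPM in ESO-26 and MMP2 71.6 CPM in OE33, each with less than 1 CPM elsewhere. JH_EsoAd1 had 9 higher and 0 lower (median difference 2.18), with fibronectin (FN1) at 521 CPM against 8.28 CPM and the collagen genes COL6A2 at 55.6 CPM and COL1A2 at 40.6 CPM. ESO-26 had 6 higher and 2 lower (median -0.12), among them FN1 at 3591 CPM and COL3A1 at 311 CPM. OE33 had 5 higher and 1 lower (0.56), led by COL6A2 at 321 CPM, VIM at 616 CPM and COL5A1 at 100.1 CPM, with FN1 lower at 4.22 CPM. OE19 had 5 higher and 2 lower (-0.05), led by VIM at 1679 CPM and S100A4 at 1440 CPM, and FN1 was 1.14 CPM. ESO-51 had 0 higher and 6 lower (-1.25). OAC_5.1_C, with ESRP1 at 247 CPM, had 4 higher and 0 lower (0.51), and FLO-1 had 3 higher and 2 lower (0.08). OACP4_C and SK-GT-4 each had 1 higher and 4 lower (-0.11 and -0.21). Over all tested genes, 3.56% to 5.23% were called higher in a library and 1.15% to 7.25% lower.

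Vimentin (VIM), the intermediate filament protein of mesenchymal cells, was also highest in the 3 libraries with the most ZEB1. It had 1679 CPM in OE19, 616 CPM in OE33, 246 CPM in ESO-26, 22.0 CPM in JH_EsoAd1, 4.92 CPM in OAC_5.1_C, 0.720 CPM in FLO-1, 0.190 CPM in OACP4_C, 0.0889 CPM in ESO-51 (4 counts) and 1 count in SK-GT-4. FN1 had another order, with a level of 2404 CPM in OAC_5.1_C and of 945 CPM in OACP4_C, both libraries with ESRP1 above 100 CPM.

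**Figure D5:**
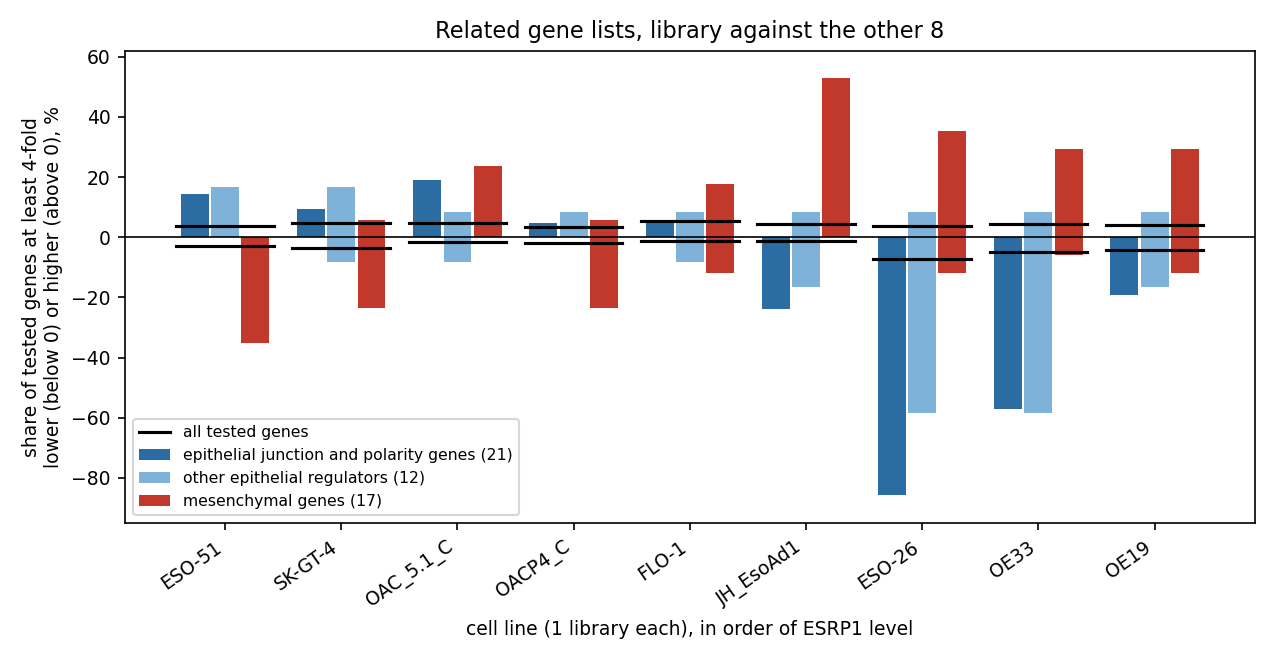
Bars give the percentage of tested genes of each list that were at least 4-fold higher (above 0) or lower (below 0) than the median of the other 8 libraries, and black lines the same percentage over all tested genes. The epithelial junction and polarity list reaches 18 of 21 lower in ESO-26 and 12 of 21 in OE33 but 4 of 21 in OE19, and the mesenchymal list reaches 9 of 17 higher in JH_EsoAd1.

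Marker genes of other cell types moved with some of these values, and their part in the results was not tested. The summed level of 8 fibroblast markers was 330 CPM in ESO-26, where COL3A1 made up 311 CPM, 88.8 CPM in JH_EsoAd1 and 1.96 to 46.1 CPM elsewhere. In ESO-26 DCN, at 13.5 CPM, and COL1A2, at 3.58 CPM, were also above the other libraries, COL1A1 was lower at 0.577 CPM, and PDGFRB and FAP had 0 counts. In OE33 PDGFRB was higher at 8.18 CPM, and THY1 was at most 0.320 CPM in each library. The summed level of 8 leukocyte markers was 25.6 CPM in ESO-26, nearly all CD14 at 25.4 CPM, and 0.756 to 6.64 CPM elsewhere, with PTPRC at 0 counts in ESO-26. Endothelial markers, 5 of them in the table, summed to 57.8 CPM in JH_EsoAd1, which had CDH5 at 29.8 CPM, and to 0.750 to 21.1 CPM elsewhere.

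Among 11 other tested transcription factors of epithelial-mesenchymal transition, the homeobox genes PRRX1 and PRRX2 were higher in ESO-26, at 14.1 and 14.3 CPM, against 0.0133 and 1.86 CPM in the other libraries. The forkhead genes FOXQ1 and FOXC1 were lower there, with 0 counts against 19.4 and 18.7 CPM. In OE33 PRRX2 was higher at 33.5 CPM and FOXQ1 lower at 3 counts. PRRX1 was higher in JH_EsoAd1 at 4.01 CPM. In OE19 FOXC2 was the 1 factor called, at 10.4 CPM against 0.0832 CPM. Of 14 corepressors and turnover factors of Snail and ZEB proteins, LOXL2 was the 1 gene called in any library, with 216 CPM in OE33, 56.0 CPM in FLO-1, 52.5 CPM in JH_EsoAd1 and 49.8 CPM in ESO-26, and at most 2.78 CPM in the rest. The corepressor genes CTBP1, CTBP2, HDAC1, HDAC2 and KDM1A stayed within 4-fold of the other libraries throughout.

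Of 9 genes known as splicing targets of the ESRP proteins, 1 was lower in each of 7 of the 9 libraries, and the gene differed. It was FGFR2 in OE19, FLO-1 and JH_EsoAd1, CD44 in SK-GT-4, ESO-26 and ESO-51, and RALGPS2 in OE33. FGFR2 was higher in ESO-26, OAC_5.1_C, OACP4_C and SK-GT-4. In that order of libraries, 3.81%, 4.75%, 3.56% and 4.84% of all tested genes were called higher. The share of all tested genes called lower was 4.22% in OE19, 7.25% in ESO-26 and 4.8% in OE33. The median difference of the 9 was 0.08 in OE19, -0.72 in ESO-26 and -0.03 in OE33. FGFR2, whose epithelial exon is the classical ESRP target, had 460 CPM in ESO-26 and 3 counts in OE19, and CD44 had 0.231 CPM (4 counts) in ESO-26 against 301 CPM in the other libraries. Gene counts say nothing of the exon used. Of 11 other splicing regulators, RBM47, which acts on epithelial exons, was lower in ESO-26 (4.73 CPM), OE33 (8.52 CPM) and JH_EsoAd1 (12.7 CPM), each against 117 CPM. QKI, known to promote mesenchymal splicing, had 3 counts in OE33 against 133 CPM, and MBNL2 stood at 9 counts in ESO-26 and 464 CPM in OE33. In OE19 none of the 11 was called.

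The genes with the pattern most like each of the 10 were ranked by Pearson r of log2(CPM + 1) over the 9 libraries. They are the best of the 17129 tested genes in each case, with the 10 genes themselves left out of the ranking. Nearest to ESRP1 were CNKSR1 (r 0.99), ARHGEF35, GALNT3, ANXA3 and KDF1, which is needed for keratinocyte differentiation. For GRHL2 they were TMEM125 (0.97), RAB25, REPS2, COBL and RBBP8NL, and for OVOL1 they were SMIM22 (0.99), SOWAHB, the channel-activating protease gene PRSS8, COBL and RAB25, so that COBL and RAB25 stood in both lists. Nearest to ZEB1 were C5orf24 (0.97), FRMD8, HSPB1P2, TTBK2 and TANGO6, and most opposite were TNFSF15 (-0.97), TSTD1, ADAM28, FBP1 and NIPAL1. FXYD3 was nearest to OVOL2 (0.98), CST3 to ESRP2 (0.97), TSPY26P to ZEB2 (0.98), DPM1 to SNAI1 (0.93) and CSTF3 to SNAI2 (0.93). For TWIST1 the likeness to SCRG1 (r 0.997, rho 0.365) rests on 1 library.

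Where a gene was called lower, the 5 tested genes on either side of it on the chromosome were read as well, in the order of another build. Of 210 such readings 1 was at least 4-fold lower (3.22% over all tested genes and libraries), RRBP1 beside OVOL2 in OE33 at -2.26. There all 10 neighbours of OVOL2 lay below the other libraries, by -2.26 to -0.55 with a median of -1.22, where OVOL2 itself was at -2.38. The part of this stretch in the OVOL2 value was not tested. Beside ESRP1 in OE19 the 10 neighbours had a median difference of 0.00, with GEM higher at 2.43, and beside GRHL2 in OE19 the median was -0.03 and no neighbour was called. A neighbour whose median elsewhere is under 3 CPM could not be called lower. Among such neighbours, AC108860.2, next to ESRP1, had 0 counts in OE19, ESO-26 and OE33 against 2.09 CPM. NCALD, next to GRHL2, had 0 counts in OE33 and 7 in OE19, against 2.25 CPM. In ESO-26 NCALD was higher at 61.3 CPM against 1.35 CPM, and EFEMP2, near OVOL1, was higher in OE33 at 42.4 CPM against 3.28 CPM.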

How the data were processed

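Total RNA was sequenced from untreated cultures of 9 cell lines. The submitters' processing notes name FastQC 0.11.7, STAR 2.6.1d, the build GRCh37 and R 3.6.1, and the counting program, annotation release and strand setting are not given in the sources used here. The authors deposited 1 table of raw whole-number counts per gene symbol, per the file headers and values, of which the blank name, 0.00485% to 0.00965% of counts, was left out. Its column OACM5.1_C was read as the line OAC_5.1_C. Files of each line, deposited by the authors, give FPKM and a gene length per gene identifier. The FPKM served as an alternative and the length for levels per kb. Counts outside the table made up 25.8% to 77.3% of those files.

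Counts were turned into CPM with TMM factors of 0.831 to 1.11, from genes at 1 CPM or more in at least 2 libraries (edgeR 4.0.16, R 4.3.3), and used as log2(CPM + 1). Differences are a library minus the median of the other 8, with a limit of 4-fold and no test. With library size alone the median gene moved by -0.25 (JH_EsoAd1) to 0.14 (ESO-51) on the log2 scale. The computation was checked on simulated data. Python 3.11.15, numpy 2.4.6, scipy 1.17.1 and pandas 2.3.3 did the rest, and matplotlib 3.10.9 drew the plots. Intervals are exact Poisson intervals at 95%. Alternatives were DESeq2 1.42.0 size factors, library size, pseudocount 5, no filter, the FPKM, a limit of 2-fold, and leaving out each library.

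The 10 genes and the lists were chosen with earlier results of these data known. Named genes were the 10 genes, the 5 of most like pattern each, up to 4 members of a list with the largest difference in a library, and called neighbours within 5 places. ERBB2, KRT8, TWIST2, EHF, PRRX1, VIM, CDH2, MMP2 and POSTN in single libraries and RAB25 across libraries were named after their values were seen. So were CDH1, EPCAM and CLDN4 in OE19, the corepressors and markers outside that rule, and the uncalled neighbours AC108860.2 and NCALD. Of 145 list symbols 142 matched, and USP27X, DUB3 and PECAM1 did not. A result that the naming rule selects is not reported here. Names and chromosomal order came from GENCODE release 29, which is on another build, and sequences from RefSeq GRCh38.p14.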

Additional observations from a re-analysis of the deposited data

How the results depend on the processing

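The 16 pairs of gene and library called higher became 8 with a pseudocount of 5, 5 with the deposited FPKM and 30 at 2-fold, and 7 to 21 when 1 library was left out, the fewest without OE19 or OE33 (7 each), with 10 without ESO-26. The 21 lower pairs became 7 with a pseudocount of 5 and 7 with FPKM, and 15 to 22 with a library left out. Ranges of at least 4 on the log2 scale, 8 in number with TWIST1 counted, became 3 with a pseudocount of 5 and 2 with FPKM, and 7 to 8 with a library left out. Calls in the context lists, 185 in all, became 101 with FPKM and 137 to 187 with a library left out. The count of 4 libraries whose epithelial regulators had a lower median than their repressors stayed at 4 to 5, the 21 negative pairs between the classes at 18 to 23, and the 22 comparisons in which the first paralogue was higher at 18 to 20 with a library left out and 21 without length. Each of the 37 calls kept its direction under every setting. As 4-fold calls, 36 held with DESeq2 size factors (GRHL2 in FLO-1 was lost), 37 with library size, 37 without the filter, 15 with a pseudocount of 5 and 10 with FPKM. Both of these last compress low levels by construction. Levels under 3 counts, 0.0400 to 0.173 CPM, are beyond what this depth can order. No paired analysis was possible because each line has 1 library.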
